A study of Mus musculus with 10 samples.

Results

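The 37 genes of the mouse mitochondrial genome were taken as the rows that the count table places on chromosome MT, 37 of 56748 genes in the table. They comprise 13 genes for proteins, 2 for ribosomal RNAs and 22 for transfer RNAs. The RNA came from primary hepatocytes of wild-type mice, kept overnight in medium conditioned by starved adipocytes, and was sequenced after selection with poly-T beads. The hepatocytes of Mttp_KO_CM received medium from A-Mttp-/- adipocytes and those of Mttp_flox_CM medium from Mttp f/f adipocytes, with 5 libraries in each group. Mttp encodes the microsomal triglyceride transfer protein. The genotypes belong to the cells that made the medium and not to the hepatocytes sequenced. The adipocytes of both groups were differentiated with IBMX, insulin, dexamethasone, indomethacin and rosiglitazone from stromal vascular cells of inguinal fat, taken from male mice after 6 months of an obesogenic diet. The labels state 3 mice and name neither the Cre driver, the strain nor the number of hepatocyte donors. No label says whether the 5 libraries of a group were separate cultures, and p-values therefore measure the spread between libraries, which may be technical.

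The mitochondrial genome is a small circle that is read almost entirely from both strands as long precursor RNAs. The transfer RNAs lie between the other genes and are cut out of the precursors, which frees the ribosomal RNAs and the mRNAs. All 13 protein-coding genes encode subunits of the respiratory chain or of the ATP synthase. Every other subunit, like the whole machinery that copies and reads the circle, is encoded in the nucleus. Each protein-coding gene is counted as an mRNA below, although genes that overlap can lie on the same mRNA. Most mature mitochondrial mRNAs carry short poly-A tails, which in several of them complete the stop codon. Ribosomal and transfer RNAs are not polyadenylated in the manner of mRNAs, so their counts after poly-T selection are not their amounts in the cell.

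Total counts per library ran from 14283517 to 17178131 in Mttp_KO_CM and from 14199798 to 15950530 in Mttp_flox_CM. In all, 26 of the 37 mitochondrial genes passed the filter on low counts. In edgeR's quasi-likelihood test over all 14183 genes kept, 10 of these 26 rose in Mttp_KO_CM and 2 fell at an adjusted p under 0.05. Of all genes tested, 18.2% rose and 18.1% fell (2585 and 2571 genes). Scaling by library size alone gave 1982 higher and 3217 lower genes in place of that split. The 8 mRNAs called higher are 8 of 12 tested, the rRNAs called lower are 2 of 2, and the tRNAs called higher are 2 of 12. No mRNA and no tRNA was called lower (0 and 0 also by DESeq2, and 0 and 1 at an unadjusted p under 0.05). The median log2 change was 0.18 over the 12 mRNAs tested, 0.03 over the 12 tRNAs and 0.00 over all genes tested. The ranges of the groups were separate for 6 of the 26 genes, 5 mRNAs that were higher and 1 rRNA that was lower. Such separation, in either direction, was found for 25.7% of all genes tested. In RNA of whole cultures, fewer cells of a type and less RNA per cell cannot be told apart.

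Calls were frequent among abundant genes in general. Of the 85 genes with a mean of at least 1000 CPM (counts scaled to library size), a level chosen after the values were seen, 45.9% rose and 36.5% fell, with a median log2 change of 0.05. These 85 genes include 7 mitochondrial mRNAs. For 70.6% of the 85 the ranges of the groups were separate, in either direction.

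Several features of the sequences bear on how reads can be assigned, and they are shown before the values. The sequences are those of the GENCODE M21 transcripts on GRCm38, matched by gene identifier, and all 37 gene lengths equal those in the count table, which rests on GRCm39. All are written 5′ to 3′ on the strand of the gene. The gene of the ATP synthase subunit mt-Atp8 shares its last 43 bases, in capitals, with the start of mt-Atp6.
mt-Atp8: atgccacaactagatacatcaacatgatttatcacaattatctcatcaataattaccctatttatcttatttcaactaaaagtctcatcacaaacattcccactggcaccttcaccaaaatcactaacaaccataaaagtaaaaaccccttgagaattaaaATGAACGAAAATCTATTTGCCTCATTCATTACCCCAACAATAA
The gene of mt-Nd4l likewise shares its last 7 bases, in capitals within its last 60 bases, with the start of mt-Nd4.
mt-Nd4l: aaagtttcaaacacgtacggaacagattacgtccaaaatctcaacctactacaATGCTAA
On opposite strands, mt-Nd5 and mt-Nd6 share 14 bases, and the labels' protocol was read as unstranded, so the reads of an overlap cannot be told apart. Likewise, reads of a gene on the minus strand (mt-Nd6 and the tRNAs mt-Te, mt-Tp, mt-Tn, mt-Tc and mt-Ty among those tested) cannot be told from precursor RNA of the opposite strand.

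The ends of 3 mRNAs show a stop codon that the tail completes. The last 31 bases of each are given, with the T that ends the gene in capitals.
mt-Co3: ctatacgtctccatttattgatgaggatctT
mt-Nd4: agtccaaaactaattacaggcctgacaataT
mt-Cytb: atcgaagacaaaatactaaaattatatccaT

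A long stretch of the mitochondrial genome also exists as a nearly identical copy on nuclear chromosome 1. On the minus strand of chromosome 1 lie 7 nuclear rows, annotated as genes of their own, between 24650616 and 24655278 (GRCm39), a segment of 4663 bases. Their sequences match 7 mitochondrial mRNA genes between MT positions 6381 and 11042, a stretch of 4662 bases, in the same order and at almost the same spacing. The row Gm28661 has the same 681 bases as mt-Co2, Gm10925 the same 678 bases as mt-Atp6, Gm28437 the same 783 bases as mt-Co3 and Gm10222 the same 294 bases as mt-Nd4l. The first 876 bases of mt-Nd4 are those of Gm28439. Gm28438 differs from mt-Nd3 at 1 of 345 bases, T3C, and Gm29216 differs from mt-Co1 at 6 of 492 bases, which are T1056A, C1057T, A1059G, A1060G, C1062A and A1066T. Here the mitochondrial base comes first, and positions are counted from 1 at the 5′ end of the mitochondrial gene. The opening 60 bases of 3 aligned pairs follow, with the differing bases in capitals, since they show how few positions can separate a gene from its copy.
mt-Co2 bases 1 to 60: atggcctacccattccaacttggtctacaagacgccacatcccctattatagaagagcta
Gm28661: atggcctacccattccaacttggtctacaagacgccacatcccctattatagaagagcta
mt-Nd3 bases 1 to 60: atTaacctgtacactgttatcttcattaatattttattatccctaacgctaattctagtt
Gm28438: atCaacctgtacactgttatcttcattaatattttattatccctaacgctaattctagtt
mt-Co1 bases 1054 to 1113: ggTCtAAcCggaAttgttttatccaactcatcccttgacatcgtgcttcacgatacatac
Gm29216: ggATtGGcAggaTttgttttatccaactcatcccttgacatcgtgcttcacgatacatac

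The share of each gene that is repeated without a mismatch was measured as the percent of its 100-base windows found in an annotated nuclear transcript. It was 99.5% for mt-Co2, 99.5% for mt-Atp6, 99.9% for mt-Co3, 98.5% for mt-Nd4l and 97.6% for mt-Nd3. Lower shares were found for mt-Nd4 (60.8%), mt-Co1 (30.8%) and mt-Nd2 (3.19%). No window of mt-Nd1, mt-Nd5, mt-Nd6, mt-Cytb, mt-Atp8 or either rRNA was shared. The value for mt-Atp8 covers annotated transcripts only, since all of it but the 43 bases shared with mt-Atp6 falls in the 233 bases between the stretches that match Gm28661 and Gm10925, where no copy is annotated.

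Levels per length fell into separate ranges. The mean over all libraries was above 1000 FPKM for 7 mRNAs. FPKM, as deposited, are fragments per kilobase of gene, scaled by a constant per library that is near, but not equal to, its summed counts. The 7 were mt-Co1 at 10294 FPKM, mt-Nd1 at 3396, mt-Nd5 at 2859, mt-Nd2 at 2755, mt-Nd4 at 2148, mt-Nd6 at 2070 and mt-Cytb at 2005, and together they held 99.6% of the counts of the 13 mRNAs. The 5 mRNAs with over 90% of windows shared had lower levels, with 82.6 FPKM for mt-Nd3, 65.1 for mt-Co2, 46.8 for mt-Co3, 44.0 for mt-Atp6 and 38.3 for mt-Nd4l. The lowest of the 7 was 24.3 times the highest of the rest. The lowest protein-coding gene was mt-Atp8, with 0.822 FPKM. It overlaps mt-Atp6 at 44.0 FPKM, and mt-Nd4l at 38.3 FPKM overlaps mt-Nd4 at 2148 FPKM. Such gaps between overlapping genes need not be differences between mRNA molecules. How the reads that match both places were treated is not stated in the sources used here. The counts of mt-Co2, mt-Atp6, mt-Co3, mt-Nd3 and mt-Nd4l, and part of those of mt-Nd4 and mt-Co1, are therefore uncertain in level and in change. Those of mt-Atp8 are uncertain as well, since whether its bases are repeated where no copy is annotated was not measured. The part of the copies in the levels was not tested.

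**Figure D1:**
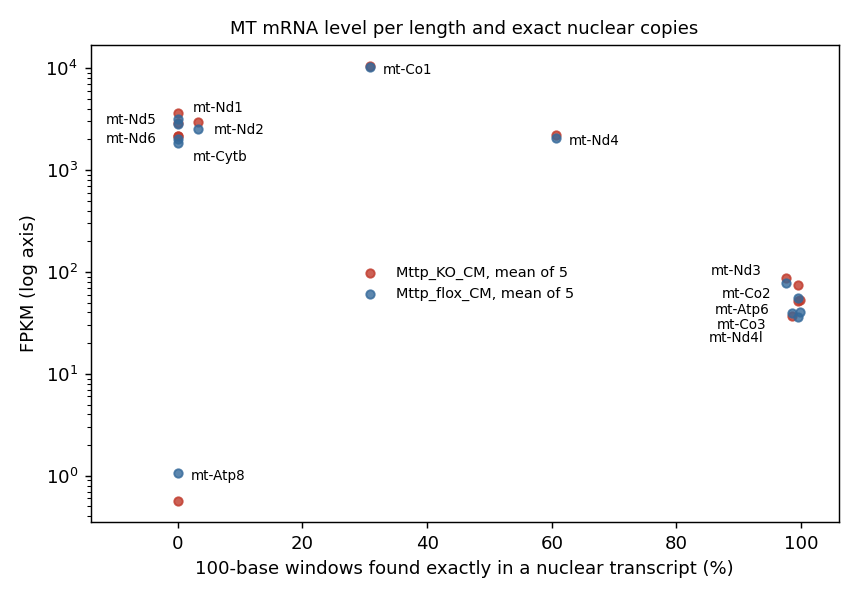
Mean FPKM (vertical log axis, fragments per kilobase of gene scaled by a constant per library) of each mitochondrial mRNA in Mttp_KO_CM and in Mttp_flox_CM, against the percent of its 100-base windows found exactly in an annotated nuclear transcript. The 5 mRNAs with over 90% of windows shared lie between 38.3 and 82.6 FPKM over all libraries. The 7 from mt-Cytb to mt-Co1 lie between 2005 and 10294 FPKM. No window of mt-Atp8, at 0.822 FPKM, was shared, but it lies within the copied stretch at a place where no copy is annotated.

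**Figure D2:**
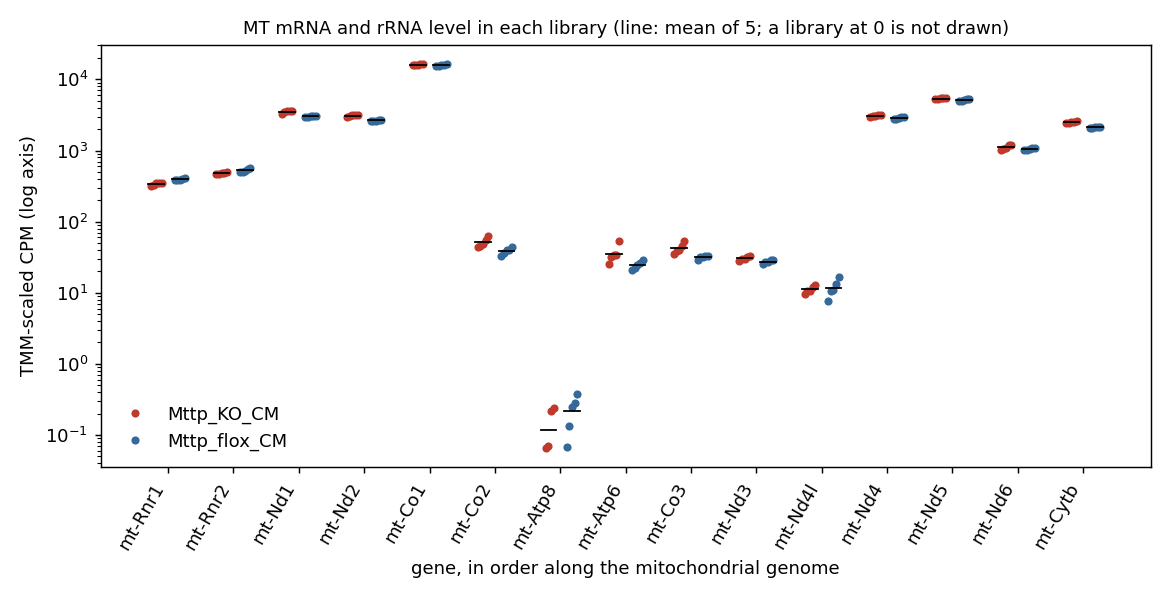
TMM-scaled CPM (vertical log axis) of the 13 mitochondrial mRNAs and both rRNAs in each library, in order along the genome, with Mttp_KO_CM in red left of Mttp_flox_CM in blue and a line at the mean of 5 libraries. From mt-Co2 to mt-Nd4l the levels are between 7.63 and 62.3 CPM except for mt-Atp8, whereas the mRNAs on both sides of this stretch exceed 1000 CPM in every library.

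Complex I, the NADH dehydrogenase through which electrons enter the chain, takes 7 subunits from the mitochondrial genome, and 4 of them rose. Of all genes tested 18.2% rose, and of those with a mean of at least 1000 CPM 45.9% rose. The 4 genes had means above that level, as did mt-Nd6, which was not called. Values per library are CPM scaled by TMM and are given in the order of replicates 1 to 4, with the library that no label numbers last. The subunit gene mt-Nd1 (ENSMUSG00000064341, MT 2751 to 3707) stood at 3582, 3613, 3597, 3535 and 3252 CPM in Mttp_KO_CM, against 3081, 3038, 2985, 2983 and 3020 CPM in Mttp_flox_CM. All Mttp_KO_CM libraries exceeded all Mttp_flox_CM libraries, and the log2 change was 0.22 (SE 0.027, adjusted p = 3.6e-07). The unnumbered Mttp_KO_CM library was well below the other 4 of its group, and without it the change was 0.24.

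The neighbouring subunit gene mt-Nd2 (ENSMUSG00000064345, MT 3914 to 4951) had 3187, 3095, 3141, 3158 and 2940 CPM in Mttp_KO_CM, against 2713, 2639, 2595, 2678 and 2620 CPM in Mttp_flox_CM. Here too the groups did not overlap, with a log2 change of 0.23 (SE 0.025, adjusted p = 4.6e-08). For every 100 counts of mt-Nd1 there were 88.3 ± 1.87 counts of mt-Nd2 in Mttp_KO_CM and 87.7 ± 1.28 in Mttp_flox_CM (SD, n = 5 each), and these ratios overlapped between the groups.

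Farther along the circle the changes of complex I genes were smaller. The gene mt-Nd4 (ENSMUSG00000064363, MT 10167 to 11544) had 3183, 3183, 3038, 3081 and 2950 CPM in Mttp_KO_CM, against 2915, 2813, 2885, 2761 and 2961 CPM in Mttp_flox_CM. The groups overlapped through the unnumbered libraries, and the log2 change was 0.11 (SE 0.026, adjusted p = 0.0020). The gene mt-Nd5 (ENSMUSG00000064367, MT 11742 to 13565) averaged 5359 ± 116 CPM in Mttp_KO_CM and 5131 ± 143 CPM in Mttp_flox_CM, a log2 change of 0.06 (SE 0.024, adjusted p = 0.0435). That call was lost in 10 of 19 alternatives, among them leaving out Mttp_KO_CM replicate 1, 2 or 4 or Mttp_flox_CM replicate 2, 3 or 4.

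The remaining complex I genes were not called. On the minus strand, mt-Nd6 (ENSMUSG00000064368, MT 13552 to 14070) had 1202, 1096, 1209, 1034 and 1027 CPM in Mttp_KO_CM, against 1082, 1010, 1010, 1046 and 1089 CPM in Mttp_flox_CM. Mttp_KO_CM replicates 1 and 3 were highest and the groups overlapped (log2 change 0.09, SE 0.039, adjusted p = 0.0797). It passed the threshold in 5 of 19 alternatives, among them the fits without either Mttp_KO_CM replicate 4 (adjusted p = 0.0253) or the unnumbered Mttp_KO_CM library (adjusted p = 0.0234). The gene mt-Nd3 (ENSMUSG00000064360, MT 9459 to 9806), nearly all of which is copied on chromosome 1, averaged 30.4 ± 2.29 CPM in Mttp_KO_CM and 27.5 ± 1.65 CPM in Mttp_flox_CM (log2 change 0.15, adjusted p = 0.0520). Leaving out Mttp_KO_CM replicate 4 (adjusted p = 0.0200) or the unnumbered Mttp_flox_CM library (adjusted p = 0.0377) brought it past the threshold. The likewise copied mt-Nd4l (ENSMUSG00000065947, MT 9877 to 10173) averaged 11.1 ± 1.32 CPM in Mttp_KO_CM and 11.8 ± 3.30 CPM in Mttp_flox_CM, with a log2 change of -0.08 (SE 0.14, adjusted p = 0.702) that turned to 0.07 without Mttp_flox_CM replicate 2.

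**Figure D3:**
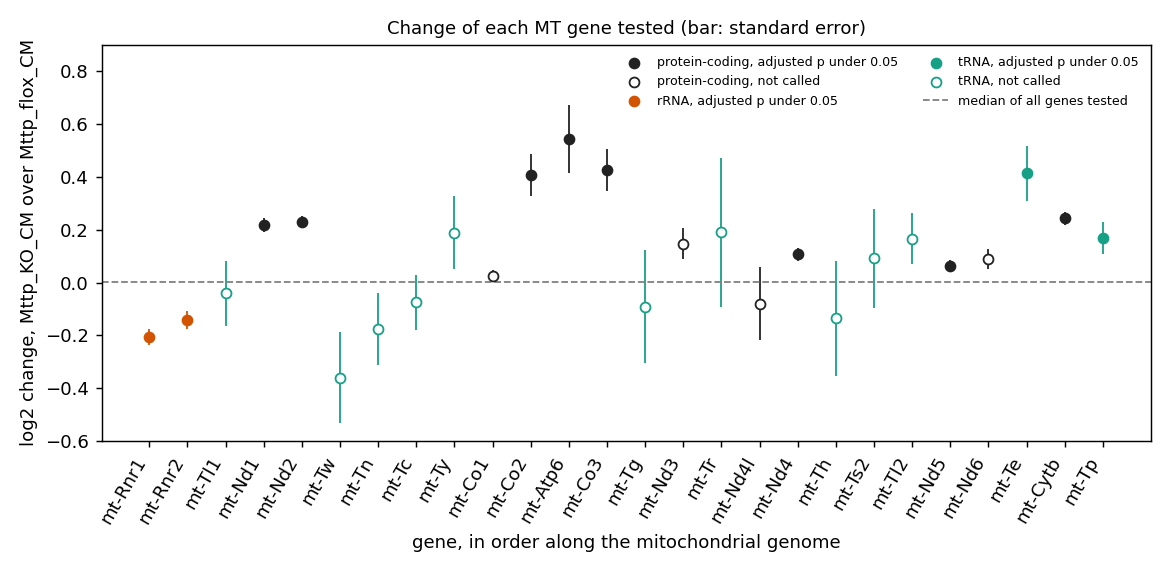
Log2 change of each of the 26 mitochondrial genes tested (Mttp_KO_CM over Mttp_flox_CM, vertical axis), in order along the genome, with bars of 1 standard error, filled points for an adjusted p under 0.05 and a dashed line at the median of all genes tested (0.00). The mRNAs called higher run from 0.06 for mt-Nd5 to 0.54 for mt-Atp6, and both rRNAs lie at or below -0.14.

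Complex III, which passes electrons from ubiquinol to cytochrome c, has a single mitochondrial subunit, cytochrome b. Its gene mt-Cytb (ENSMUSG00000064370, MT 14145 to 15288) had 2450, 2516, 2534, 2600 and 2406 CPM in Mttp_KO_CM, against 2149, 2093, 2061, 2127 and 2137 CPM in Mttp_flox_CM. The lowest Mttp_KO_CM library was above the highest Mttp_flox_CM library, and the log2 change was 0.24 (SE 0.024, adjusted p = 1.4e-08). For every 100 counts of mt-Nd5, the mRNA before it on the same strand, there were 46.7 ± 1.49 counts of mt-Cytb in Mttp_KO_CM and 41.2 ± 0.650 in Mttp_flox_CM (SD, n = 5 each), without overlap. Counts of mt-Nd6, a gene on the other strand, were 44.6 ± 3.80 per 100 of mt-Cytb in Mttp_KO_CM and 49.5 ± 1.09 in Mttp_flox_CM, and these overlapped. They may include precursor RNA of the opposite strand, since the protocol was read as unstranded.

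Complex IV, cytochrome c oxidase, takes its 3 core subunits from the mitochondrial genome. The most abundant mitochondrial mRNA was mt-Co1 (ENSMUSG00000064351, MT 5328 to 6872), which encodes the subunit that binds oxygen. It had 16515, 15959, 16552, 15959 and 15716 CPM in Mttp_KO_CM, against 15497, 15642, 15756, 15920 and 16433 CPM in Mttp_flox_CM. The ranges overlapped almost wholly, with a log2 change of 0.03 (SE 0.023, adjusted p = 0.413), or -0.01 when scaled by library size alone. Among the counts of the 13 mRNAs, mt-Co1 held 46.1 ± 0.514% in Mttp_KO_CM and 48.3 ± 0.619% in Mttp_flox_CM (SD, n = 5 each). Counts of mt-Cytb per 100 of mt-Co1 were 15.5 ± 0.551 in Mttp_KO_CM and 13.3 ± 0.341 in Mttp_flox_CM, without overlap. The counts of mt-Cytb and mt-Co1 thus did not change in equal proportion, though no test was made of the ratio. Part of the counts of mt-Co1 is uncertain through the copy on chromosome 1.

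Both other subunits of complex IV, mt-Co2 and mt-Co3, lie wholly within the stretch copied on chromosome 1. The gene mt-Co2 (ENSMUSG00000064354, MT 7013 to 7696), whose product receives the electrons of cytochrome c, had 62.3, 44.7, 48.1, 44.9 and 55.3 CPM in Mttp_KO_CM, against 39.3, 36.4, 43.4, 33.2 and 40.1 CPM in Mttp_flox_CM. The groups did not overlap, though Mttp_KO_CM replicates 2 and 4 were close to Mttp_flox_CM replicate 3 (log2 change 0.41, SE 0.078, adjusted p = 1.8e-04). The gene mt-Co3 (ENSMUSG00000064358, MT 8607 to 9390) had 34.9 to 53.2 CPM in Mttp_KO_CM, highest in replicate 4, against 28.6 to 33.1 CPM in Mttp_flox_CM, again without overlap (log2 change 0.43, SE 0.079, adjusted p = 1.2e-04).

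The ATP synthase has 2 mitochondrial subunits, both in its membrane part. The copied gene mt-Atp6 (ENSMUSG00000064357, MT 7927 to 8607) had 34.4, 31.5, 53.2, 25.0 and 33.96 CPM in Mttp_KO_CM, against 24.6, 22.3, 26.2, 21.04 and 28.8 CPM in Mttp_flox_CM. Mttp_KO_CM replicate 3 was far above the other 4 and replicate 4 fell within the Mttp_flox_CM range. The log2 change was 0.54 (SE 0.13, adjusted p = 0.0016) and 0.34 without Mttp_KO_CM replicate 3 (adjusted p = 0.0033). The gene mt-Atp8 (ENSMUSG00000064356, MT 7766 to 7969) had 0 to 6 counts per library and was not tested.

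The nuclear rows with the same sequences were compared in the same fit. Reads of identical bases cannot be told apart between a nuclear row and its mitochondrial gene. The counts of these rows are therefore as uncertain, and their changes need not be those of RNA from chromosome 1. Gm28437, the copy of mt-Co3, averaged 33.1 ± 11.3 CPM in Mttp_KO_CM and 22.8 ± 2.06 CPM in Mttp_flox_CM (log2 change 0.53, adjusted p = 0.0028, groups not overlapping). Its spread in Mttp_KO_CM came from replicate 2, which had 752 counts, and without that library the change was 0.31 (adjusted p = 0.0020). In mt-Co3 itself the highest library was Mttp_KO_CM replicate 4, so gene and copy were not high in the same library. Gm10925, the copy of mt-Atp6, rose by 0.25 (adjusted p = 0.0019) and Gm28439, the copy of the start of mt-Nd4, by 0.24 (adjusted p = 0.0016). The other 4 rows on chromosome 1 were not called, with log2 changes of 0.24 for Gm28661 (adjusted p = 0.0603), 0.28 for Gm28438, 0.09 for Gm10222 and -0.05 for Gm29216. Gm28661 passed the threshold in 6 of 19 alternatives, among them leaving out Mttp_KO_CM replicate 2, Mttp_flox_CM replicate 2 or the unnumbered Mttp_flox_CM library, and its change was 0.13 without Mttp_flox_CM replicate 4 and 0.32 without Mttp_flox_CM replicate 2. Gm13340 on chromosome 2, which resembles mt-Co1 and had 20 to 43 counts per library, was not called either, at -0.12. The 3 mRNAs called without overlap that have under 5% of windows shared were mt-Nd1, mt-Nd2 and mt-Cytb. Of the 5 mRNAs tested with under 5% of windows shared, 4 rose, with a median log2 change of 0.22. All 5 had means above 1000 CPM. Of all genes tested 18.2% rose, and of those with a mean of at least 1000 CPM 45.9% rose. The ranges of the groups were separate, in either direction, for 70.6% of the latter.

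The ribosomal RNAs fell, opposite in direction to the mRNAs that were called. Both are cut from the start of the precursor that also carries mt-Nd1. The small-subunit rRNA mt-Rnr1 (ENSMUSG00000064337, MT 70 to 1024) had 331, 317, 349, 355 and 350 CPM in Mttp_KO_CM, against 416, 393, 386, 385 and 383 CPM in Mttp_flox_CM. No library of Mttp_KO_CM reached the lowest of Mttp_flox_CM, and the log2 change was -0.21 (SE 0.032, adjusted p = 1.2e-05). The large-subunit rRNA mt-Rnr2 (ENSMUSG00000064339, MT 1094 to 2675) had 479, 461, 466, 497 and 485 CPM in Mttp_KO_CM, against 573, 544, 522, 497 and 500 CPM in Mttp_flox_CM. Replicate 4 of both groups lay near 497 CPM, so the groups overlapped there (log2 change -0.14, SE 0.034, adjusted p = 0.0016).

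Per length both rRNAs were below the 7 abundant mRNAs, at 354 ± 16.5 FPKM for mt-Rnr1 in Mttp_KO_CM and 409 ± 13.8 FPKM in Mttp_flox_CM. The rRNAs supplied 2.28 ± 0.107% of the mitochondrial counts in Mttp_KO_CM and 2.72 ± 0.149% in Mttp_flox_CM (SD, n = 5 each), without overlap. Set against their neighbour mt-Nd1, both rRNAs were also lower. There were 9.70 ± 0.754 counts of mt-Rnr1 per 100 of mt-Nd1 in Mttp_KO_CM and 12.99 ± 0.303 in Mttp_flox_CM, and 13.6 ± 0.887 counts of mt-Rnr2 in Mttp_KO_CM and 17.4 ± 0.865 in Mttp_flox_CM, in both cases without overlap. Between themselves the rRNAs kept overlapping ratios, with 140 ± 4.82 counts of mt-Rnr2 per 100 of mt-Rnr1 in Mttp_KO_CM and 134 ± 4.29 in Mttp_flox_CM. These ratios are descriptions, with no test, and the efficiency of poly-T capture of the rRNAs in each library was not measured.

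Transfer RNAs are short and carry amino acids to the ribosome, and 10 of the 22 were not tested, with 0 to 10 counts per library. Among these, mt-Tf and mt-Td had 0 counts in all 10 libraries, which allows up to 3 counts, or 0.177 to 0.214 CPM, in a library, for counting error only. The genes mt-Ts1, mt-Td, mt-Tk, mt-Tg and mt-Tr lie within the stretch that matches chromosome 1. Whether their own bases are repeated there was not measured, so their counts, with the zeros of mt-Td, are uncertain as well. The tRNA with the most counts was mt-Tp (ENSMUSG00000064372, MT 15356 to 15422, minus strand), which carries proline and has the anticodon TGG, in capitals here.
mt-Tp: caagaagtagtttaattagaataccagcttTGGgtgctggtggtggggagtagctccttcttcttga
It had 47.8, 45.0, 56.4, 47.9 and 52.9 CPM in Mttp_KO_CM, against 43.3, 43.6, 40.1, 45.9 and 50.03 CPM in Mttp_flox_CM. Groups overlapped, and the log2 change of 0.17 (SE 0.060, adjusted p = 0.0305) lost its call in 7 of 19 alternatives, among them leaving out Mttp_KO_CM replicate 3, the unnumbered Mttp_KO_CM library or Mttp_flox_CM replicate 1, 2 or 3. The glutamate tRNA mt-Te (ENSMUSG00000064369, MT 14071 to 14139, minus strand) lies between mt-Nd6 and mt-Cytb and has the anticodon TTC.
mt-Te: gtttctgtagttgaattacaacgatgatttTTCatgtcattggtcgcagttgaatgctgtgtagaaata
It had 12.3, 10.7, 10.6, 12.1 and 10.4 CPM in Mttp_KO_CM, against 7.88, 8.77, 7.69, 7.20 and 10.8 CPM in Mttp_flox_CM. All but the unnumbered Mttp_flox_CM library were below every Mttp_KO_CM library (log2 change 0.41, SE 0.11, adjusted p = 0.0031).

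The other 10 tRNAs tested were not called, at means between 0.749 and 15.3 CPM. Their log2 changes ran from -0.36 for mt-Tw (tryptophan, adjusted p = 0.112) to 0.19 for mt-Tr (arginine) and 0.19 for mt-Ty (tyrosine). Between these lay mt-Tn at -0.17, mt-Th at -0.14, mt-Tg at -0.09, mt-Tc at -0.08, mt-Tl1 at -0.04, mt-Ts2 at 0.09 and mt-Tl2 at 0.17. The last of these passed the threshold without Mttp_flox_CM replicate 4 (log2 change 0.27, adjusted p = 0.0136). Single libraries moved the small changes of these tRNAs. With a library left out, the log2 change ran from 0.018 to 0.30 for mt-Tr, from 0.10 to 0.27 for mt-Ty, from 0.014 to 0.22 for mt-Ts2, from 0.099 to 0.27 for mt-Tl2, from -0.25 to -0.063 for mt-Tn, from -0.18 to -0.0088 for mt-Tc and from -0.44 to -0.24 for mt-Tw, and it turned in sign for mt-Th, mt-Tg and mt-Tl1.

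All 37 genes together took a nearly equal share of the library in both groups. It was 3.60, 3.55, 3.59, 3.56 and 3.40% of all counts in Mttp_KO_CM, against 3.42, 3.38, 3.38, 3.43 and 3.51% in Mttp_flox_CM. In Mttp_KO_CM 4 libraries lay above every Mttp_flox_CM library, and the unnumbered one lay below 3 of them. The means were 3.54 ± 0.0803% in Mttp_KO_CM and 3.42 ± 0.0524% in Mttp_flox_CM (SD, n = 5 each), a difference of 0.114 percentage points that ranged from 0.0985 to 0.148 when single libraries were left out. The 7 complex I genes held 45.1 ± 0.521% of the mitochondrial counts in Mttp_KO_CM and 43.6 ± 0.473% in Mttp_flox_CM, without overlap.

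**Figure D4:**
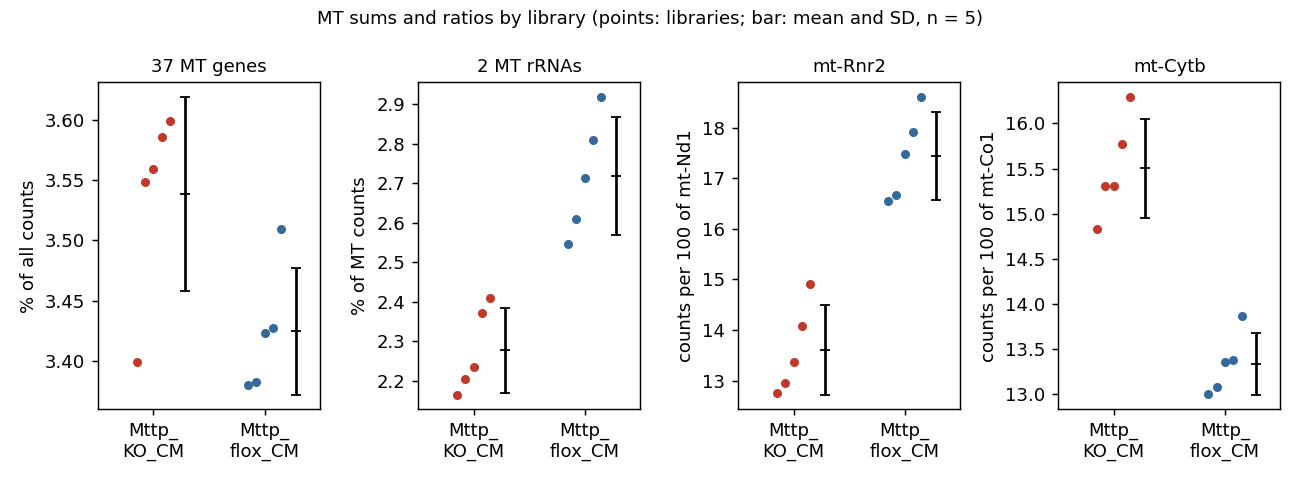
Sums and ratios of mitochondrial counts by library (points), with mean and SD (n = 5), Mttp_KO_CM left of Mttp_flox_CM; the vertical axes, in percent or in counts per 100, do not start at 0. The share of all counts overlaps between the groups (3.54% in Mttp_KO_CM, 3.42% in Mttp_flox_CM), whereas the rRNA share, mt-Rnr2 per mt-Nd1 and mt-Cytb per mt-Co1 do not.

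The nuclear genes that serve the mitochondrial genome and its products were set beside its transcripts, in 9 lists of 191 genes, of which 190 were tested. In Mttp_KO_CM 56 rose (29.5%, against 18.2% of all genes tested) and 2 fell, with a median log2 change of 0.09. Among the nuclear subunits of complex I, 10 of 36 rose and 0 fell (0 also by DESeq2 and at an unadjusted p under 0.05), led by Ndufs1, which binds iron-sulfur clusters (log2 change 0.22, adjusted p = 1.6e-05), and Ndufs3 (0.20). In complex III 5 of 9 rose, led by the Rieske protein Uqcrfs1 (0.21, adjusted p = 1.2e-05) and cytochrome c1, Cyc1 (0.16). In complex IV 1 of 11 rose, a smaller share than over all genes tested. This was Cox7a2 at 0.15, a call lost in 2 of 19 alternatives, both without the unnumbered libraries. In complex II, which has no mitochondrially encoded subunit, 1 of 4 rose, the membrane anchor Sdhd at 0.13. In the ATP synthase 8 of 17 rose, led by its α subunit Atp5a1 (0.18, adjusted p = 3.0e-06) and by Atp5g1, a gene of the rotating ring (0.25).

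Of 25 genes for transcription, replication and packaging of mitochondrial DNA, 4 rose and 0 fell (0 by DESeq2, and 2 at an unadjusted p under 0.05). The share that rose was no higher than the 18.2% found over all genes tested. The transcription factor Tfb2m, which opens mitochondrial promoters, averaged 34.8 ± 2.19 CPM in Mttp_KO_CM and 27.2 ± 1.35 CPM in Mttp_flox_CM, without overlap (log2 change 0.36, adjusted p = 8.3e-06). The replicative helicase Twnk averaged 23.3 ± 1.35 CPM in Mttp_KO_CM and 18.7 ± 1.31 CPM in Mttp_flox_CM (0.32, adjusted p = 2.4e-04). The elongation factor Tefm rose by 0.31 (adjusted p = 0.0092) and the matrix protease Lonp1 by 0.17. The polymerase that transcribes the circle, Polrmt, had 36.1 ± 1.44 CPM in Mttp_KO_CM and 36.7 ± 2.86 CPM in Mttp_flox_CM (-0.02, adjusted p = 0.775). Neither the packaging factor Tfam (0.12, adjusted p = 0.0857) nor the DNA polymerase Polg (0.02, adjusted p = 0.725) was called. Without Mttp_KO_CM replicate 3, Tfam passed the threshold (0.17, adjusted p = 0.0090).

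Processing, modification and stability of mitochondrial RNA was the list with the highest median, 0.14. Of its 37 genes 16 rose, against 18.2% of all genes tested, while 0 fell (0 also by DESeq2 and at an unadjusted p under 0.05). Its smallest p belonged to Nsun2, an RNA methyltransferase that also acts on nuclear-encoded RNAs (log2 change 0.36, adjusted p = 5.2e-10). Also called were Tbrg4 (0.21) and Ptcd3 (0.28), proteins that bind mitochondrial RNA. Lrpprc, which stabilises mitochondrial mRNAs, averaged 174 ± 5.14 CPM in Mttp_KO_CM and 154 ± 1.69 CPM in Mttp_flox_CM (0.17, adjusted p = 6.5e-05). Its partner Slirp, the poly-A polymerase Mtpap and the exonuclease Pnpt1 were not called, each at 0.09. In the list of translation factors and tRNA synthetases 6 of 34 rose and 0 fell (0 also by DESeq2 and at an unadjusted p under 0.05). The share that rose in this list was no higher than over all genes tested. Among the 6 were the elongation factor Gfm1 (0.25, adjusted p = 4.7e-06) and the tyrosyl-tRNA synthetase Yars2 (0.30).

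Of 17 regulators of mitochondrial biogenesis tested, 5 rose and 2 fell, beside 18.2% and 18.1% of all genes tested. The nuclear receptor Esrra averaged 36.4 ± 1.60 CPM in Mttp_KO_CM and 29.0 ± 2.18 CPM in Mttp_flox_CM, without overlap (log2 change 0.33, adjusted p = 2.9e-05), and Ppara, the receptor in the series' title, rose by 0.33. The coactivator Ppargc1a fell, with 4.57 ± 0.623 CPM in Mttp_KO_CM and 5.97 ± 0.997 CPM in Mttp_flox_CM (-0.39, SE 0.14, adjusted p = 0.0305), a call lost in 7 of 19 alternatives, among them leaving out Mttp_KO_CM replicate 1 or 3, Mttp_flox_CM replicate 1, 3 or 4, or the unnumbered Mttp_flox_CM library. The factors Nrf1 (-0.03) and Gabpa (-0.06) were not called.

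**Figure D5:**
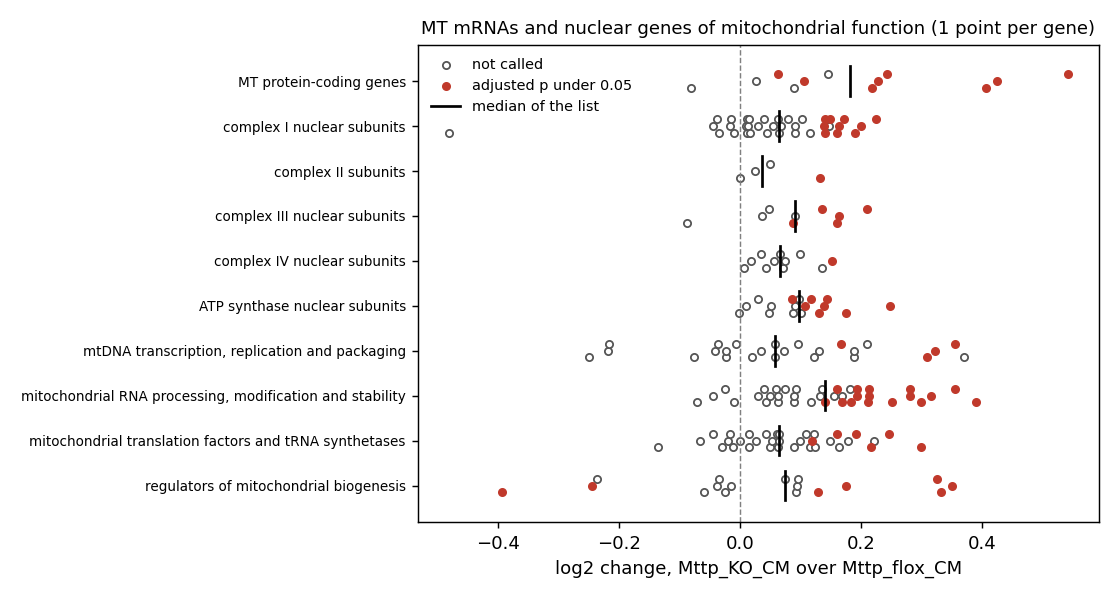
Log2 change (horizontal axis, Mttp_KO_CM over Mttp_flox_CM) of each gene tested among the mitochondrial mRNAs and 9 nuclear lists, 1 point per gene, filled for an adjusted p under 0.05, with a bar at the median of each list. The median is 0.18 for the mitochondrial mRNAs and between 0.04 and 0.14 for the nuclear lists.

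Markers of cell types also differed between the groups, and their part in the changes of mitochondrial transcripts was not tested. Over all genes tested, 18.1% fell and 18.2% rose. Of 11 hepatocyte markers tested 9 fell and 2 rose, with a summed level of 41338 to 43253 CPM in Mttp_KO_CM and 51671 to 54068 CPM in Mttp_flox_CM. All 14 liver endothelial markers fell (1438 to 1519 CPM in Mttp_KO_CM, 2511 to 2679 CPM in Mttp_flox_CM). So did 11 of 12 macrophage markers, while 1 rose (582 to 658 CPM in Mttp_KO_CM, 861 to 946 CPM in Mttp_flox_CM), 9 of 11 stellate cell markers (65.8 to 73.9 CPM in Mttp_KO_CM, 115 to 129 CPM in Mttp_flox_CM) and 3 of 6 cholangiocyte markers (315 to 382 CPM in Mttp_KO_CM, 567 to 629 CPM in Mttp_flox_CM). Of 7 adipocyte markers only 2 passed the filter on low counts, and both rose. The sum over all 7 was 204 to 225 CPM in Mttp_KO_CM and 127 to 149 CPM in Mttp_flox_CM. The adipocyte genes Lep and Cfd had 0 counts in every library. Lymphocyte and neutrophil markers summed to at most 0.357 CPM in Mttp_KO_CM and 0.248 CPM in Mttp_flox_CM, with Cd3d, Nkg7 and Ly6g at 0, and red blood cell markers to at most 2.37 CPM in Mttp_KO_CM and 2.74 CPM in Mttp_flox_CM.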

How the data were processed

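RNA sequencing libraries of cultured mouse hepatocytes were analysed, 5 per group. The authors deposited whole-number counts per gene and, in a second table, FPKM. The submitters' processing notes name HISAT2 2.0.5, featureCounts 1.5.0-p3 and GRCm39, and the strand setting, the treatment of multiply matching reads and the annotation release are not stated in the labels. Deposited FPKM equal counts over gene length and a constant per library, and the ratio of summed counts to the library size implied by it was 1.01 ± 0.00375 in Mttp_KO_CM and 0.982 ± 0.00138 in Mttp_flox_CM (SD, n = 5 each); FPKM served only to set genes side by side and as an alternative. In each group 1 column carries a number that no label gives and was kept as a replicate without a number.

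The fit used edgeR 4.0.16 under R 4.3.3: filterByExpr (minimum count 10, minimum total 15; 14183 of 56748 genes and 99.8% of counts kept), TMM scaling (factors 0.982 to 0.993 in Mttp_KO_CM, 1.01 to 1.02 in Mttp_flox_CM), glmQLFTest, and Benjamini-Hochberg adjustment over all genes tested. CPM are TMM-scaled. Log2 changes are Mttp_KO_CM over Mttp_flox_CM, with a prior count of 0.125. The closest pair of libraries of a group differed by 2.04 times the sampling variance, so none was counted as a duplicate. In simulated data for this comparison (14183 genes, 100 per fold), the fit recovered 46% of 1.2-fold and 90% of 2-fold changes, and 6.85% of its calls were unchanged genes. The simulation changed far fewer genes than the 2585 and 2571 called in the data, so these rates need not hold for them.

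Exact windows of mitochondrial genes were searched in the GENCODE M21 transcripts. The members and the gene lists were chosen with earlier results of these data known. Named genes were the mitochondrial mRNAs and rRNAs, tRNAs past the filter, up to 4 nuclear genes per list with the smallest p-values, 14 fixed factors, and nuclear copies with over 10 counts in every library; not all that the rule takes are given. Of 268 listed symbols 16 were matched through another symbol and 1 was not found. Alternatives were other scalings, filters, DESeq2 1.42.0, limma 3.58.1 on log2(FPKM + 1), leaving out libraries, and the replicate number as a block.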

Additional observations from a re-analysis of the deposited data

Results flagged for a closer look

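In 62 groups of 5 libraries, 7 had a library far from the other 4 by Dixon's criterion, which chance meets in about 1 group in 20. In Mttp_KO_CM the unnumbered library was low for mt-Nd1, at 3252 CPM against 3535 to 3613 CPM in the other 4. It was low as well in the share of all counts from the 37 mitochondrial genes (3.40%, others 3.55 to 3.60%) and from the 13 mRNAs (3.31%, others 3.46 to 3.51%), and high for mt-Ty (6.35 CPM, others 4.61 to 5.05 CPM). Mttp_KO_CM replicate 4 was high for mt-Tc (15.1 CPM, others 10.5 to 11.8 CPM). In Mttp_flox_CM, replicate 1 was high for mt-Rnr1 (416 CPM, others 383 to 393 CPM) and replicate 3 for mt-Tl1 (7.56 CPM, others 5.25 to 5.90 CPM).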

How the results depend on the processing

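Mitochondrial genes called higher numbered 8 to 12 over all alternatives (8 to 11 with a library left out) and those called lower 2 throughout; for the mRNAs these counts were 7 to 10 and 0. Over the nuclear lists 39 to 58 genes were called higher (46 to 58 with a library left out). Genes of those lists called lower numbered 2, and 4 under library size alone, 1 with log2(FPKM + 1) and 0 to 2 with a library left out. The median log2 change of the mitochondrial mRNAs was 0.14 under library size alone and 0.14 with no filter, which adds mt-Atp8. Under library size alone the log2 change was -0.013 for mt-Co1 and -0.019 for Polg. With a library left out, the log2 change ranged from -0.31 to 0.031 for mt-Th, -0.21 to 0.066 for mt-Nd4l, -0.23 to 0.044 for mt-Tg, -0.088 to 0.056 for mt-Tl1, -0.10 to 0.019 for Gm29216, -0.25 to 0.019 for Gm13340 and -0.00033 to 0.037 for Polg. The cause of these shifts was not tested. Deviations of libraries of the same replicate number had correlations of 0.018, 0.001, -0.012 and 0.095 across genes. Those of different numbers had -0.046 to 0.034. The 0.095 of replicate 4 was the highest of all pairs, but each value was small, and the numbers were not taken as pairs. A replicate block over the numbered libraries gave 2326 genes higher and 2325 lower, against 2264 and 2307 on the same libraries without it. With the block mt-Nd3 (adjusted p = 0.0385) and mt-Nd6 (adjusted p = 0.0032) passed the threshold, as they did in those libraries without it (adjusted p = 0.0409 and 0.0164). Counts were low, at 0 to 10 per library, for mt-Atp8 and the 10 tRNAs not tested. The part of the nuclear copies in the counts of the mRNAs that match them was not tested.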
